A study of Rattus norvegicus with 4 samples.

Results

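The 10 genes examined belong to the cAMP and CREB response and were followed across the 4 arrays of a study of rat hippocampal progenitor cells. They were the orphan nuclear receptors Nr4a1, Nr4a2 and Nr4a3, the transcription factors Creb1 and Crem, the cAMP phosphodiesterases Pde4a, Pde4b and Pde4d, the clock gene Per1 and the salt-inducible kinase Sik1. The members were taken by gene symbol from the platform annotation, and all 10 of 10 had a probe set, out of 14217 named genes on the array. They held 25 probe sets, of which 14 lay above a floor of log2 = 5 on all 4 arrays, 3 on some arrays and 8 on no array; lower values are treated as having no specific signal.

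The cells were hippocampal progenitors of Fisher 344 rats, expanded with basic fibroblast growth factor and then plated at 1000 cells per square centimetre in N2 medium with compound for 4 days. The 4 groups were retinoic acid at 1 uM with forskolin (the positive control), the small molecule KHS101 at 5 uM, KHS101 at 1.7 uM, and DMSO, the solvent and negative control, given as 0.1% in the protocol. Each group was 1 array, so no spread between cultures can be given, no test was run and precision is limited by having only 4 arrays; the concentration of forskolin and the age of the animals are not given in the sources used here. The design text of the series mentions only retinoic acid for the positive control, whereas the sample labels add forskolin, so its presence rests on the labels. No array had either compound alone, so an effect of retinoic acid and one of forskolin cannot be told apart.

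Forskolin activates adenylyl cyclase, which makes cAMP. cAMP releases the catalytic subunits of protein kinase A (PKA), which phosphorylate CREB, and CREB bound to the cAMP response element of its target genes then recruits coactivators. Nr4a genes, Per1, Sik1, Crem and Pde4 genes are widely used examples of targets: their RNA rises quickly after a cAMP stimulus and usually falls again, in part because CREM repressor forms, PDE4 enzymes and SIK1 each oppose the pathway. These arrays sample a single time, 4 days after the compounds were added.

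The cAMP response element was looked up in the RefSeq promoter table (build GRCr8, 250 bases before to 50 after each start), because it is the feature by which these genes are usually grouped. Of the 10 genes, 9 were in the table with 20 promoters in all. The full element TGACGTCA, which reads the same on both strands, was in 2 of the 20, both of Crem, and in 1.83% of all 33469 promoters in the table. The half-site TGACG on either strand, which every full element also holds, was in 11 of the 20 and in 21.2% of all promoters. The 20 promoters are not independent, as 5 were of Pde4d and 4 of Pde4a. Because the genes are usually grouped by this element, the counts are a description and not a test. The stretches around the full elements of Crem are given below with the element in capitals; positions count from the start, whose first base is 1.
Crem, chr17:58984733-58984756, plus strand, element at -56 to -49: taggctggTGACGTCActgtgatg
Crem, chr17:58985447-58985470, plus strand, element at -35 to -28: caaagggcTGACGTCAttacattt
Crem, chr17:58985521-58985539, plus strand, element at 40 to 47: ctgcacatTGACGTCAgct

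The promoter of Nr4a1 held 4 half-sites and that of Sik1 held 2, all with TGACG on the opposite strand, so that they read CGTCA in the strand printed (capitals). They are shown as examples of genes with half-sites near a start and, as given below, no 2-fold difference between any of the arrays. Creb1, Crem and Pde4d also had half-sites and no such difference. Per1 held neither motif in its window and had no such difference either.
Nr4a1, chr7:134259888-134259924, plus strand: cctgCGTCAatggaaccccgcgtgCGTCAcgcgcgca
Nr4a1, chr7:134260048-134260068, plus strand: gccgtgtgCGTCAgtggcgcc
Nr4a1, chr7:134260077-134260097, plus strand: tctccatgCGTCAcggagcgc
Sik1, chr20:9958814-9958845, minus strand: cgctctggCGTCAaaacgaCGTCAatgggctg

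Nr4a2 and Pde4b had the largest differences among the 10 genes, and their promoters are printed whole. Nr4a2 held 1 half-site, at -8 to -4 (capitals). The Pde4b promoters, 1 for each of 2 starts, held neither motif in these windows. These matches describe the letters of the windows and are not evidence of binding.
Nr4a2, chr3:62104838-62105137, minus strand: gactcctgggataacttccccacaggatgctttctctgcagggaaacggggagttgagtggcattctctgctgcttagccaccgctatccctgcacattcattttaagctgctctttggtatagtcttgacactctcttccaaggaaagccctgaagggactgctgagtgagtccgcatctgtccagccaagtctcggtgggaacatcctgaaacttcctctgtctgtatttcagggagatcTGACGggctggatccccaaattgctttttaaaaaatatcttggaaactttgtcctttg
Pde4b, chr5:122028706-122029005, plus strand: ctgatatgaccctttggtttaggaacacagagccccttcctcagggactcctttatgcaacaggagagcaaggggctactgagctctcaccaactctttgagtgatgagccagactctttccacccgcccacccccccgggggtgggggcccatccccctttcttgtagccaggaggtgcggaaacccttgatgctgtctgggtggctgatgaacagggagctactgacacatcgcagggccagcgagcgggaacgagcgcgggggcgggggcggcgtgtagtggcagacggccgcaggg
Pde4b, chr5:122222323-122222622, plus strand: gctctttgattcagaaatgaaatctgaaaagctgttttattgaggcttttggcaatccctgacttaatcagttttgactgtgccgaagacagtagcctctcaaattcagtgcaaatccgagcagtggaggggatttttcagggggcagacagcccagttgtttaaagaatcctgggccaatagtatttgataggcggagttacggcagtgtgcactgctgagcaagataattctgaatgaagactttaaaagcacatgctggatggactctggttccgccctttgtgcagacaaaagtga

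Pearson's r between arrays lay between 0.981 and 0.996 over all probe sets, more of which were below the floor than above it, and between 8389 and 8471 named genes were above the floor on each array. Of 6 progenitor markers with a probe set, Sox2, Vim, Nes, Hes1 and Fabp7 were above the floor on all 4 arrays and Pax6 on none. Oligodendrocyte lineage markers were also high, 5 of 5 above the floor on all arrays, as were 3 of 5 neuronal and 2 of 5 astrocyte markers; Gfap and Rbfox3 were below it. All 6 microglial markers were below the floor on all arrays.

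A gene was represented by its probe set with the highest mean, and called at a difference of 2-fold or more after values below the floor were raised to it. With retinoic acid and forskolin, the group whose label names a cAMP stimulus, 0 of 8 measured genes were called against DMSO, where 7.49% of 8535 measured genes were called in either direction. With KHS101 at 5 uM, 1 of 8 was lower and 0 were higher, against 14.3% of 8543 genes in either direction. With KHS101 at 1.7 uM the count was again 1 of 8 lower and 0 higher, against 8.63% of 8533 genes. The called gene was Nr4a2 at both concentrations. These 3 comparisons share the DMSO array. The median size of the log2 difference over the measured members was 0.25 with retinoic acid and forskolin, 0.34 with KHS101 at 5 uM and 0.07 at 1.7 uM, beside 0.29, 0.36 and 0.27 over all measured genes.

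**Figure D1:**
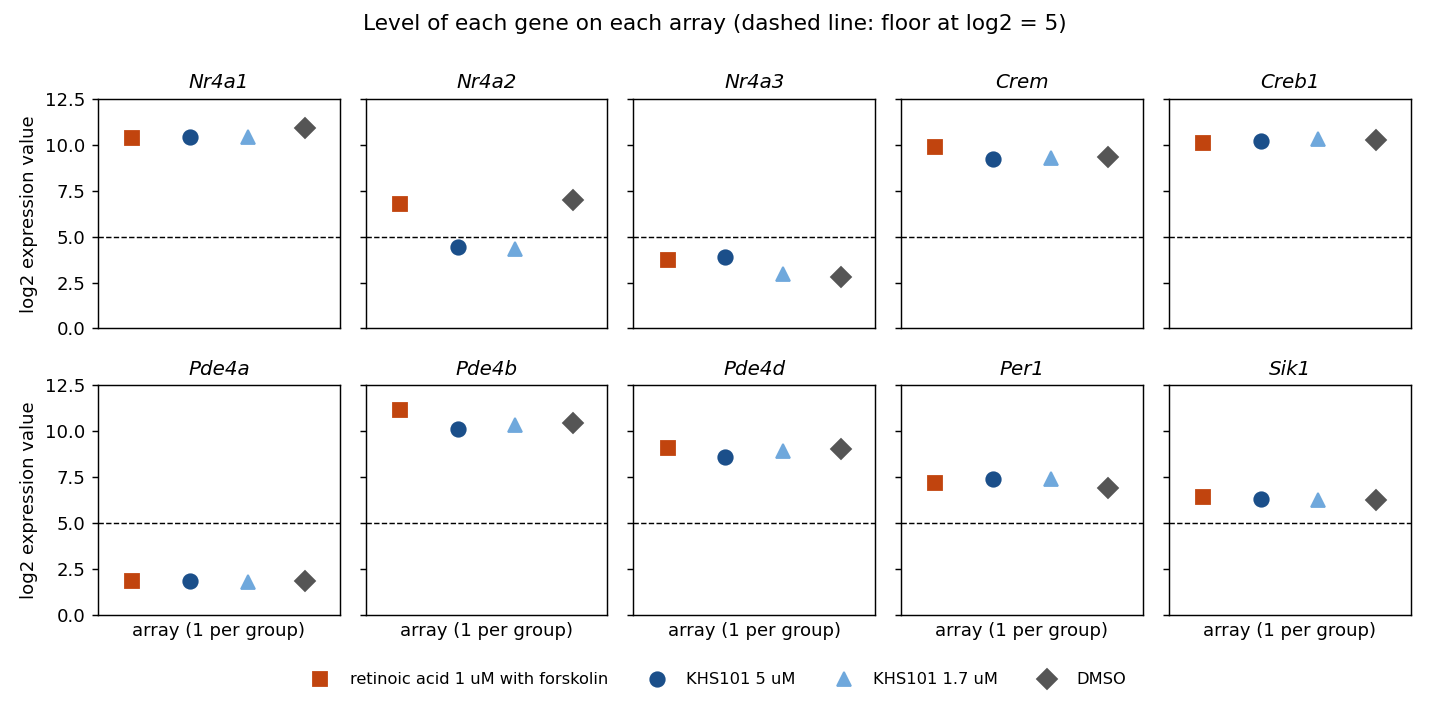
Log2 expression value of the probe set that stands for each of the 10 genes (1 panel per gene) on each of the 4 arrays; the dashed line is the floor at log2 = 5, and levels of different genes are not comparable. Nr4a2 is below the floor on both KHS101 arrays and near 7 on the others, Nr4a3 and Pde4a are below it on all 4 arrays, Pde4b spans 1.01 on the log2 scale with its highest value under retinoic acid and forskolin, and the other 6 genes span 0.63 or less.

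The 3 Nr4a genes encode nuclear receptors that act without a known hormone and are classic immediate early genes. Nr4a2 (also known as Nurr1, needed for dopamine neurons) had log2 values of 6.77 with retinoic acid and forskolin, 4.41 with KHS101 at 5 uM, 4.32 at 1.7 uM and 6.99 in DMSO. Both KHS101 arrays were thus below the floor, while the positive control and DMSO lay close together. Nr4a2 was at least 3.98-fold lower than in DMSO at either KHS101 concentration, and no order between the concentrations can be given. Among all measured genes, 3.45% differed from DMSO by at least that size at 5 uM and 1.28% at 1.7 uM. Set against retinoic acid with forskolin, Nr4a2 was at least 3.41-fold lower at both concentrations.

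A second probe set for Nr4a2 read 4.35 with retinoic acid and forskolin, 2.87 with KHS101 at 5 uM, 3.34 at 1.7 uM and 5.19 in DMSO. It was above the floor in DMSO alone and so bounds each difference only at 0.19 on the log2 scale. The 2-fold call therefore rests on 1 probe set. The floor fixes the sign of the other, which has the same bound with retinoic acid and forskolin, so it adds no support. Marker sets of cell types moved in both directions on the KHS101 arrays. The summed linear level of 5 oligodendrocyte lineage markers was 16747 at 5 uM and 25098 at 1.7 uM, against 49767 in the positive control and 38520 in DMSO. For 6 progenitor markers, the sums were 40940 at 5 uM and 54729 at 1.7 uM, against 62557 in the positive control and 67999 in DMSO. Fabp7 carried much of that difference, with log2 values of 12.48 at 5 uM and 13.39 at 1.7 uM, against 14.59 in DMSO. Nes (11.89 and 11.97, against 11.36 in DMSO) and Hes1 (10.36 and 10.55, against 9.02) went the other way. The sums of 5 neuronal markers were 7106 at 5 uM and 7525 at 1.7 uM, against 8340 in the positive control and 6352 in DMSO. Among them Tubb3 and Map2 were above DMSO at both concentrations, but Syt1 was below it (log2 6.84 and 7.29, against 7.48). The sums of 5 astrocyte markers were 10885 and 11760, against 19891 in the positive control and 10056 in DMSO. Only S100b and Slc1a3 were above the floor among these, and S100b carried most of the sums. Its log2 values were 13.33 at 5 uM, 13.44 at 1.7 uM, 14.21 in the positive control and 13.15 in DMSO. Slc1a3 went the other way with KHS101, at 8.997 and 9.198, against 9.717 in DMSO. The part of these markers in the Nr4a2 result was not tested, and in bulk RNA fewer cells of a type cannot be told apart from less RNA per cell.

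Nr4a1 (Nur77) read 10.37 with retinoic acid and forskolin, 10.44 with KHS101 at 5 uM, 10.45 at 1.7 uM and 10.94 in DMSO. All 3 treated arrays lay within 0.08 of each other and below DMSO, by 1.49-fold, 1.41-fold and 1.41-fold. Differences of this size or more were common: 24.3% of genes with retinoic acid and forskolin, 37.4% with KHS101 at 5 uM and 27.1% at 1.7 uM. With 1 DMSO array shared by the comparisons, a low treated level and a high DMSO value cannot be told apart. Nr4a3 (Nor1) was below the floor on all 4 arrays and on all 3 of its probe sets, the highest of its values being 3.89 with KHS101 at 5 uM, so no level or difference is given.

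The genes whose 3 differences from DMSO lay closest to those of Nr4a2, by Euclidean distance over 8646 genes above the floor on at least 1 array, were Mturn, Cadm1 and Sox3. Mturn was at a distance of 0.14, with log2 values of 7.09 with retinoic acid and forskolin, 5.34 with KHS101 at 5 uM, 5.33 at 1.7 uM and 7.24 in DMSO. The adhesion molecule gene Cadm1, at 0.30, read 10.09, 8.27, 8.44 and 10.18 on the same arrays in that order. The progenitor transcription factor gene Sox3, at 0.33, read 8.80, 6.82, 7.07 and 9.13. The distances rest on 4 arrays and, for Nr4a2, on values raised to the floor.

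Crem and Creb1 encode transcription factors that bind the cAMP response element; Crem also gives rise, from an internal promoter, to the short repressor ICER. Crem read 9.87 with retinoic acid and forskolin, 9.24 with KHS101 at 5 uM, 9.26 at 1.7 uM and 9.31 in DMSO. The positive control was highest, at 1.47-fold over DMSO, and the KHS101 arrays were 0.07 and 0.05 below DMSO on the log2 scale. All 4 Crem probe sets above the floor on every array had their highest value with retinoic acid and forskolin, with log2 differences from DMSO of 0.55, 0.66, 0.33 and 0.30. A further probe set close to the floor differed by -0.10. The same 4 probe sets were lower with KHS101 at 5 uM than with retinoic acid and forskolin, by between 0.15 and 0.63 on the log2 scale, and the one close to the floor was lower by at least 0.07. None reached 2-fold, and 25.4% of all genes differed from DMSO by at least as much as Crem with retinoic acid and forskolin.

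Creb1 read 10.10 with retinoic acid and forskolin, 10.22 with KHS101 at 5 uM, 10.32 at 1.7 uM and 10.25 in DMSO. These values span 0.21 on the log2 scale. A second Creb1 probe set was lower with retinoic acid and forskolin, at 7.72, than with KHS101 at 5 uM (8.18), with KHS101 at 1.7 uM (8.14) and in DMSO (8.36), a log2 difference from DMSO of -0.64. The probe sets have the same sign for this comparison and differ in size, and the 2 others of Creb1 were below the floor throughout.

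**Figure D2:**
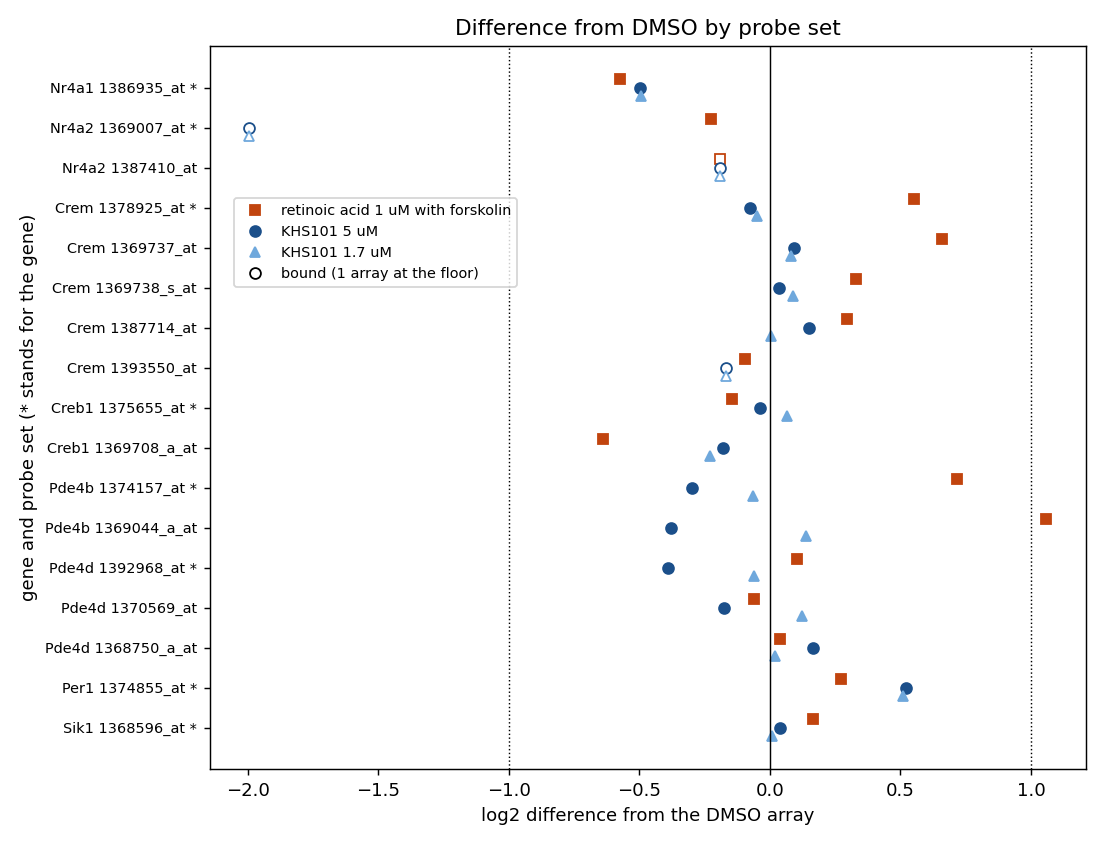
Log2 difference from the DMSO array (horizontal axis) for the 17 member probe sets above the floor on at least 1 array (vertical axis), by treatment; open symbols are bounds because 1 of the 2 arrays is at the floor, and dotted lines mark 2-fold. The KHS101 bounds of the probe set that stands for Nr4a2 lie at -1.99, and the Pde4b and Crem symbols of retinoic acid with forskolin lie between 0.30 and 1.06 apart from 1 Crem probe set at -0.10.

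PDE4 enzymes hydrolyse cAMP and so end its signal. Pde4b read 11.15 with retinoic acid and forskolin, 10.14 with KHS101 at 5 uM, 10.37 at 1.7 uM and 10.44 in DMSO. The positive control was highest and KHS101 at 5 uM lowest. Pde4b was 1.64-fold higher with retinoic acid and forskolin than in DMSO, a size that 16.5% of all genes reached. Its second probe set read 9.89, 8.46, 8.98 and 8.84 on the same arrays in that order, and was 2.08-fold higher with retinoic acid and forskolin than in DMSO.

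Between treatments, Pde4b was 2.02-fold lower with KHS101 at 5 uM than with retinoic acid and forskolin, and 2.71-fold lower by its second probe set. At 1.7 uM it was 1.72-fold and 1.89-fold lower. In the comparison of KHS101 at 5 uM with retinoic acid and forskolin, 2 of 8 members were called lower (Nr4a2 and Pde4b) and 0 higher, beside 10.2% of 8606 genes lower and 8.94% higher (19.2% in all). At 1.7 uM, 1 of 8 was lower (Nr4a2) and 0 were higher, beside 5.39% of 8588 genes lower and 5.93% higher (11.3% in all).

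Pde4d read 9.12 with retinoic acid and forskolin, 8.63 with KHS101 at 5 uM, 8.96 at 1.7 uM and 9.02 in DMSO. KHS101 at 5 uM was lowest, 1.31-fold below DMSO. Its other probe sets, both close to the floor, differed in sign at 5 uM, with log2 differences from DMSO of -0.17 and 0.17. Pde4a was below the floor on all 4 arrays, at no more than 1.86, by its single probe set.

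Per1, a repressor of the circadian clock with a well-known cAMP response, was the member furthest above DMSO on the KHS101 arrays. It read 7.18 with retinoic acid and forskolin, 7.43 with KHS101 at 5 uM, 7.42 at 1.7 uM and 6.91 in DMSO. DMSO was the lowest array, with ratios of 1.21-fold, 1.43-fold and 1.43-fold over it in that order. As for Nr4a1, the shared DMSO array means that treated levels and the DMSO value cannot be told apart as the source. Among all genes, 52.4% differed by at least this much with retinoic acid and forskolin, 35.6% with KHS101 at 5 uM and 25.7% at 1.7 uM.

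Sik1, a kinase that restrains the CREB coactivators of the CRTC family, had nearly the same value everywhere. It read 6.42 with retinoic acid and forskolin, 6.30 with KHS101 at 5 uM, 6.26 at 1.7 uM and 6.26 in DMSO. The whole range was 0.17 on the log2 scale. A second probe set was below the floor on all arrays.

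The KHS101 concentrations were then set against each other. Of 7 measured members 0 were called at 5 uM against 1.7 uM, beside 0.812% of 8500 genes higher and 1.73% lower (2.54% in all). The largest differences were those of Pde4d and Pde4b, 1.26-fold and 1.18-fold lower at 5 uM. Creb1 was 1.07-fold lower, and Nr4a1, Per1, Sik1 and Crem had nearly the same value on both arrays, Crem and Sik1 differing by 1.02-fold.

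**Figure D3:**
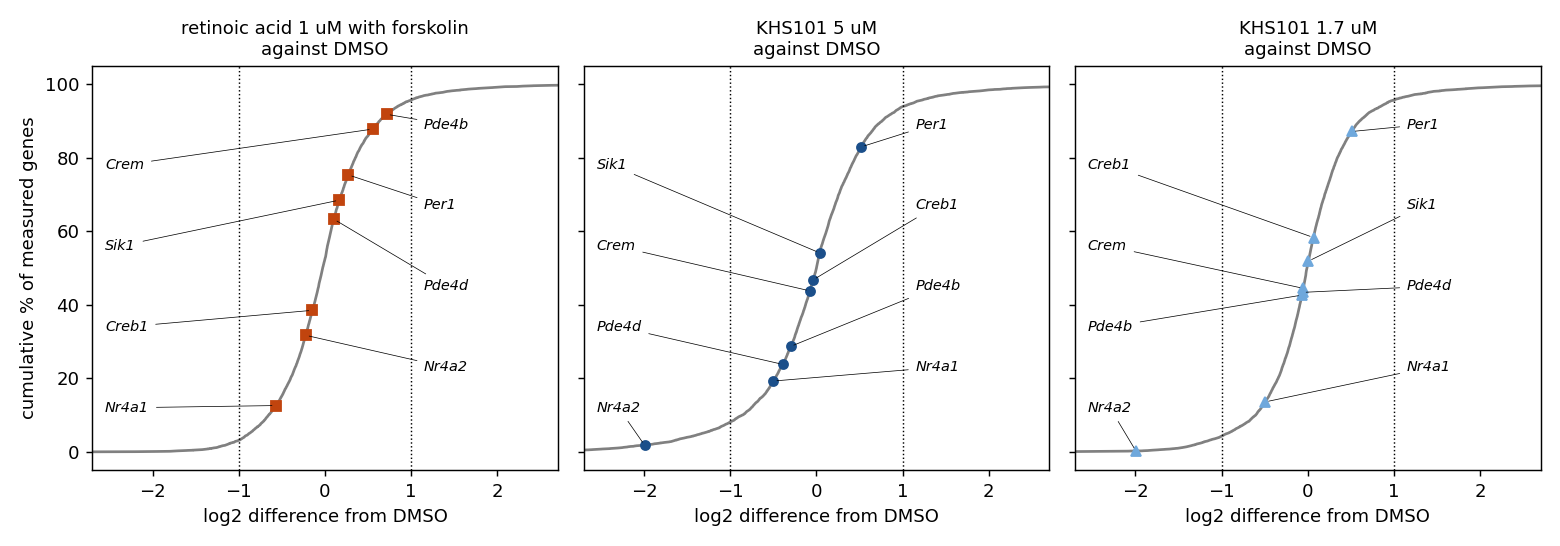
Cumulative percentage of all measured genes (grey line, vertical axis) by log2 difference from DMSO (horizontal axis) for the 3 treatments, with the 8 measured members as symbols and 2-fold as dotted lines. All members lie between the dotted lines with retinoic acid and forskolin; Nr4a2, a bound at -1.99, is the one outside them with KHS101 at either concentration.

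The rest of the pathway was taken from 7 lists with 102 genes, of which 94 had a probe set. The lists were chosen with earlier results of these data known. Their counts are therefore a description and not a test, here and in the paragraphs below. Against DMSO, 6 of 47 measured genes were higher and 1 lower with retinoic acid and forskolin, beside 4.34% and 3.15% of all genes. With KHS101 at 5 uM, 7 of 48 were higher and 3 lower, beside 6.16% and 8.1%, and at 1.7 uM 6 of 47 were higher and 0 lower, beside 4.36% and 4.27%. The median log2 differences of these genes were 0.23, 0.16 and 0.12 in that order, and those of all genes -0.03, 0.00 and -0.01. The counts of higher genes include Egr2 and, with KHS101, Creb3l1, both below the floor in DMSO. These 2 genes were counted as measured only through their treated arrays, so their differences from DMSO could only be upward. The shares of all genes given here also stand beside the count of each list that follows.

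Upstream of CREB, only 3 of 8 adenylyl cyclase genes were measured and none was called against DMSO. Among them Adcy2 read 7.91 with retinoic acid and forskolin, 6.31 with KHS101 at 5 uM, 6.68 at 1.7 uM and 7.09 in DMSO. Set against retinoic acid with forskolin, 1 of 3 cyclases, Adcy2, was called lower at 5 uM and at 1.7 uM. Of all genes, 10.2% and 5.39% were lower in those 2 comparisons. Of 9 PKA subunit and inhibitor genes measured with KHS101 at 5 uM, 2 were lower and 0 higher, beside 8.1% and 6.16% of all genes. Prkaca, a catalytic subunit gene, read 8.77 with KHS101 at 5 uM and 10.35 in DMSO, 3.01-fold lower. The other catalytic subunit gene listed, Prkacb, read 10.93 and 11.37 on these arrays, 1.35-fold lower and not called. The regulatory subunit gene Prkar2b was 2.16-fold lower. With retinoic acid and forskolin and with KHS101 at 1.7 uM, 0 of 8 were called; Prkaca read 9.85 and 9.52 there.

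Anchoring proteins hold PKA at defined places in the cell. Akap7 was 2.35-fold and Akap12 2.29-fold higher with retinoic acid and forskolin than in DMSO. Of 9 genes of the anchoring and EPAC list, 2 were higher and 0 lower, beside 4.34% and 3.15% of all genes. Akap12 was also 2.14-fold higher with KHS101 at 1.7 uM, and Akap9 was 2.22-fold higher at 5 uM, the single call in that list at each concentration. With retinoic acid and forskolin, Akap9 was 1.99-fold higher, just short of a call. By its second probe set, Akap12 was 0.93 (retinoic acid and forskolin) and 1.18 (KHS101 at 1.7 uM) above DMSO on the log2 scale. Among 6 other phosphodiesterases, Pde8b was 2.04-fold higher with retinoic acid and forskolin, and none was called with KHS101. The probe sets of Akap7, Akap9 and Pde8b that did not stand for the gene were below the floor on all arrays, as were those of Egr2 and Fos, described below.

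In the list of CREB relatives and coactivators 0 of 9 were called with retinoic acid and forskolin. Creb3l1, a membrane-bound transcription factor that is cut free under secretory stress, was below the floor in DMSO and in the positive control. It read 7.35 with KHS101 at 5 uM and 6.92 at 1.7 uM, against 4.37 in DMSO, at least 5.11-fold and 3.77-fold higher. Creb5 was 2.37-fold lower with KHS101 at 5 uM, and its 3 other probe sets above the floor were lower by 0.55 to 1.05 on the log2 scale. Among 4 measured relatives of Sik1 and Per1, the kinase gene Sik3 was 2.29-fold higher with retinoic acid and forskolin and the clock gene Cry1 2.17-fold higher with KHS101 at 5 uM, the single call in that list for each treatment; none was called at 1.7 uM. The second Sik3 probe set differed by 0.48 on the log2 scale with retinoic acid and forskolin and so did not reach 2-fold. Per2 and Per3 were below the floor on all arrays.

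Of 36 other known CREB target genes, 32 had a probe set and 8 were above the floor on at least 1 array; Bdnf, Sst, Fosb, Junb, Arc and Ppargc1a were among those below it. With retinoic acid and forskolin 2 of 8 were higher and 1 lower, beside 4.34% and 3.15% of all genes. Egr2 read 8.98 with retinoic acid and forskolin, 8.12 with KHS101 at 5 uM, 7.12 at 1.7 uM and 3.19 in DMSO, so that all 3 treatments were above DMSO. The differences were at least 15.7-fold, 8.68-fold and 4.35-fold. Egr1 was 2.30-fold, 2.57-fold and 2.30-fold higher in the same order. With 1 DMSO array shared by the comparisons, raised treated levels and a low DMSO value cannot be told apart for Egr2, Egr1 or, below, Fos. Odc1, the first enzyme of polyamine synthesis, was 2.38-fold lower with retinoic acid and forskolin and was not called with KHS101.

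With KHS101, 4 of 7 of these targets were higher and 0 lower at each concentration: Egr1, Egr2, Fos and Cebpb. Among all genes, 6.16% were higher at 5 uM and 4.36% at 1.7 uM. Egr2 was counted as measured only through its treated arrays, being below the floor in DMSO. Fos read 10.00 with retinoic acid and forskolin, 10.72 with KHS101 at 5 uM, 10.46 at 1.7 uM and 9.19 in DMSO. It was 2.89-fold higher than DMSO at 5 uM and 2.41-fold higher at 1.7 uM. Cebpb, a transcription factor gene that other stimuli, among them cell stress, also induce, read 6.20 with retinoic acid and forskolin, 9.65 with KHS101 at 5 uM, 8.09 at 1.7 uM and 5.79 in DMSO. It was 14.5-fold and 4.90-fold higher with KHS101. Growth factor signals induce Egr1, Egr2 and Fos as well, so these genes are not specific to cAMP.

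**Figure D4:**
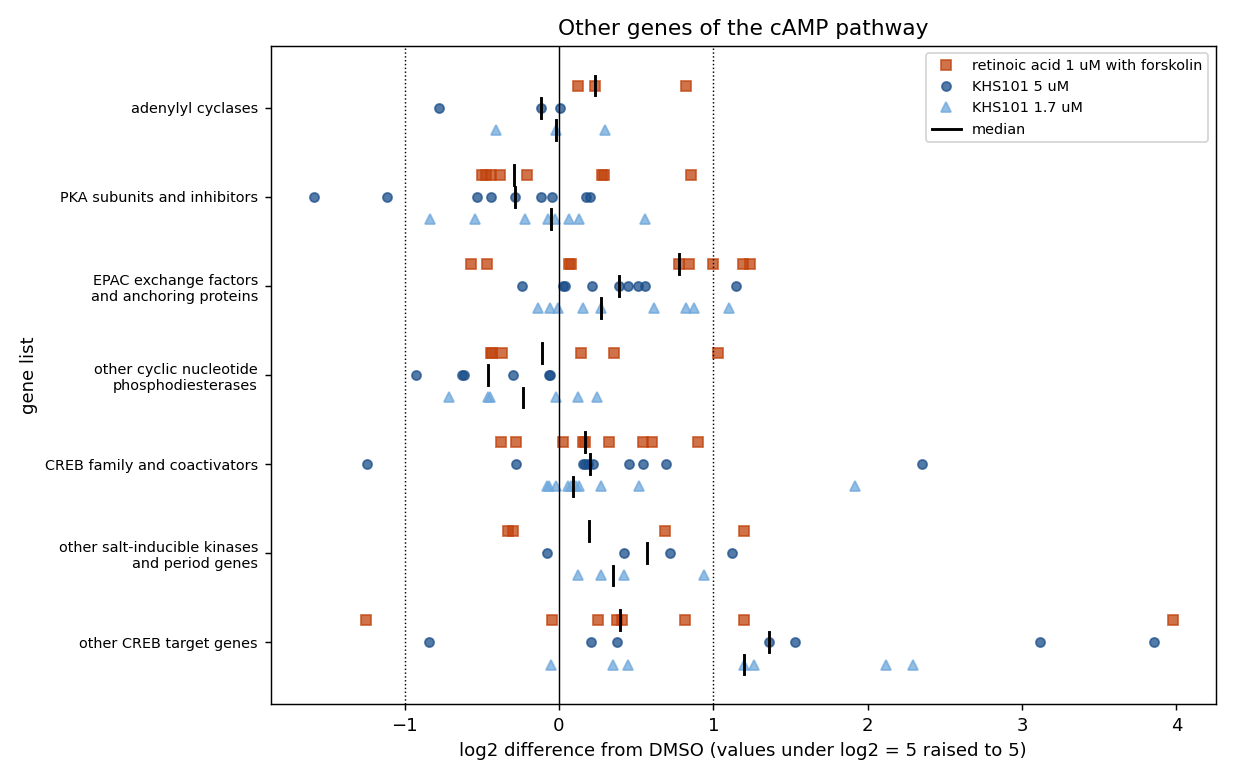
Log2 difference from DMSO (horizontal axis) of the measured genes in 7 lists of other cAMP pathway genes (vertical axis), by treatment; black bars are medians, dotted lines mark 2-fold, and genes with 1 array at the floor are drawn at their bound. The largest differences are in the list of other CREB target genes, where Egr2 and Cebpb lie beyond 2 on the log2 scale with KHS101 and Egr2 at 3.98 with retinoic acid and forskolin.

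Signs of RNA quality differed between the arrays and are given beside these results. The 3' minus 5' log2 difference of the beta-actin control was 1.37 with retinoic acid and forskolin, 1.54 with KHS101 at 5 uM, 1.40 at 1.7 uM and 1.26 in DMSO. That of hexokinase was 0.66, 0.96, 0.80 and 0.69 on the same arrays in that order, and that of GAPDH lay between -0.16 and -0.11 on all arrays. The part of this in the differences above was not tested.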

How the data were processed

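Rat Affymetrix arrays measured 31099 probe sets in 1 sample for each of 4 groups, taken from the sample labels. The deposited values are log2 expression values, which the authors made with GCRMA and R 2.6.2, per the submitters' processing notes; which step each served is not stated there. The log2 scale was read from the values (array medians 3.67 to 3.76, maximum 16.1). Sorted columns differed by at most 0.19, so a shift of all genes could not be seen.

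From these values, differences between arrays were computed in Python 3.11.15 with pandas 2.3.3. Of the probe sets, 20826 had 1 gene symbol in the platform annotation, 436 several and 9780 none, and 57 were controls; 20758 of the named matched RefSeq by gene identifier. Each gene was represented by its brightest probe set on average, values under log2 = 5 were raised to 5, and genes above 5 on either array of a pair were counted as measured. Calls needed 2-fold. Differences that involve a floored array are given as bounds ("at least"). With 1 array per group no test could be made. The calculation returned known differences on simulated data.

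The genes named were all 10 members, list genes called against DMSO (at most 6 per list and comparison), and the 3 genes nearest in pattern to the member with the largest range; a few further list genes, chosen after their values were seen, are given as examples. The members and lists were chosen with earlier results of these data known. Alternatives were 3 other floors (none among them), other folds, the mean of probe sets, and quantile normalization.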

Additional observations from a re-analysis of the deposited data

How the results depend on the processing

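With 1 array per group the calls have no replicate check, and with values at the floor on the KHS101 arrays the size of the Nr4a2 difference is limited by the signal over background. No paired analysis was possible because each group has 1 array. A floor at log2 = 6 left 0 members called for KHS101 at 5 uM and 0 at 1.7 uM against DMSO (main count 1 each). It cuts the Nr4a2 bound to -0.99, and the shares of all genes called were 13.5% and 8%. Against retinoic acid with forskolin, that floor left 1 and 0 (main counts 2 and 1), beside 18.4% and 10.6% of all genes. Without a floor 2 of 10 members were called for KHS101 at 5 uM against DMSO, beside 9.6% of 14217 genes. The added one was Nr4a3, whose values are all below 5. With the mean of probe sets, 1 member was called for KHS101 at 5 uM and 0 at 1.7 uM against retinoic acid with forskolin. Of all genes, 16.6% and 9.3% were called there. These counts fell because the second Nr4a2 probe set, at the floor on these arrays, reduces the Nr4a2 difference to -0.88. A 3-fold threshold left 1 member for KHS101 at 5 uM against retinoic acid with forskolin, beside 7.72% of all genes. A 1.5-fold threshold called 1 member (Pde4b) with retinoic acid and forskolin against DMSO, beside 23.5% of all genes, and 3 for KHS101 at 1.7 uM against retinoic acid with forskolin, beside 26.9%. The other 32 counts of called members stayed within 1.5 times the main count, and no called member changed direction under these alternatives.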
